A study of Homo sapiens with 3 samples.

Results

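ETS1 binding was examined at the genes of 9 other members of the ETS family of transcription factors, out of 19881 protein-coding genes. They were the PEA3 group (ETV1, ETV4 and ETV5), the ternary complex factors (ELK1, ELK3 and ELK4), the DNA-binding subunit of GABP (GABPA) and a pair of repressors (ETV6 and ERF). A gene's locus was its body in GENCODE release 44 on hg19 plus 100 kb on each side, and a peak belonged to it when the peak's midpoint lay inside. The 9 loci held 53 of the 26961 nuclear ETS1 peaks in the deposited list, and no peak belonged to more than 1 locus. The peak farthest from a gene that was counted lay 99946 bp from ELK3, and the nearest one left out lay 103562 bp from ETV6.

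The peaks came from ChIP-Seq of untreated SCC25, a permanent line grown from a tongue squamous carcinoma, which the study uses as a mesenchymal model. There were 3 ChIP samples, 2 with the polyclonal antibody C20 and 1 with the polyclonal antibody 501A, both raised against ETS1. The authors combined them into 1 consensus list of positions, which holds no score, summit, read count or value per sample, so neither a spread between samples nor a comparison of the antibodies could be had. Positions alone hold no expression, and the identity of the cell line could not be checked against marker genes.

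ETS factors share a winged helix-turn-helix DNA-binding domain that contacts a GGAA core, and most of them accept similar bases around it. The PEA3 and ternary complex factors are activated by phosphorylation through the RAS to ERK cascade, and the latter bind beside serum response factor at immediate early genes. GABP binds DNA as a complex of its alpha subunit with a beta subunit, mostly at promoters of broadly expressed genes, while ETV6 and ERF repress genes through the same core.

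The sequences below are shown because each holds ETS-like letters within a peak at a transcription start site (TSS) of a member. Each is centred on the CCGGAA nearest to the peak's midpoint wherever the peak had one, even where AGGAAG or AGGAAA lay closer, and otherwise on AGGAAG. They come from the GRCh37 reference, run 5′ to 3′ in the direction of the gene, and were cut to 30 bases where 120 bases would have met an annotated UTR. Capitals mark matches to CCGGAA or to AGGAAG or to AGGAAA on either strand, so that TTCCGG is the first of them read from the other strand. In the same way CTTCCT stands for the second and TTTCCT for the last.
ETV1 TSS, chr7:14030406-14030525, minus strand: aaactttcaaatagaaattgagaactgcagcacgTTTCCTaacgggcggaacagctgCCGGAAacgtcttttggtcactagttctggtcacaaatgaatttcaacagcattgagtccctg
ETV4 TSS, chr17:41622711-41622740, minus strand: cgcagaaatcgcCCGGAAatgggagcttgc
ETV5 TSS, chr3:185826498-185826527, minus strand: tgcggctaacggTTCCGGagcgcggggaga
ELK1 TSS, chrX:47509364-47509393, minus strand: atttattccaccCTTCCTgtacatcgtagc
ELK3 TSS, chr12:96586873-96586992, plus strand: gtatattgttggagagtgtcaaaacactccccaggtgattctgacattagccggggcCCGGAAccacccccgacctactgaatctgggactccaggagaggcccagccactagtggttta
ELK4 TSS, chr1:205601144-205601173, minus strand: gcagcccctcccCCGGAAgtgacgtgtagc
GABPA TSS, chr21:27107378-27107407, plus strand: gagggtaagtgcTTCCGGgtcccctggcac
ETV6 TSS, chr12:11802292-11802411, plus strand: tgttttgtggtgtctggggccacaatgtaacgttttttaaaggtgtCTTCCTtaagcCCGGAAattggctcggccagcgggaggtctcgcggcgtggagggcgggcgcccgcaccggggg
ERF TSS, chr19:42759169-42759198, minus strand: gggagccgcggcCCGGAAtcggggcgcttc

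With CCGGAA taken first, it was the centre of the stretch at 8 of the 9 genes. ELK1 had no CCGGAA in its TSS peak, and its stretch is centred on the only AGGAAG there, near the peak's edge and 673 bp from its midpoint. At ELK4 the match lay 20 bp upstream of the canonical TSS (the start of the annotation's representative transcript). ERF and GABPA had theirs 96 and 110 bp downstream, and ETV6 had it 256 bp upstream. Farther off, the matches of ETV5 and ETV4 lay 365 and 982 bp downstream, and that of ETV1 1175 bp upstream. In ELK3 the only CCGGAA lay 1220 bp upstream of the start, at the edge of a wide peak and 1651 bp from its midpoint, and the same peak held 6 AGGAAG matches. GABPA's peak held 4 CCGGAA matches, the most of these 9 peaks.

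The widest intronic peak of each of the 3 genes that had any gave the following stretches, printed in the same way.
ELK3 intron, chr12:96613497-96613616, plus strand: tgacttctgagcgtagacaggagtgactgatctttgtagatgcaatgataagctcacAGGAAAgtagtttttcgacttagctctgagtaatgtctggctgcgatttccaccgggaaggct
ETV6 intron, chr12:11872747-11872866, plus strand: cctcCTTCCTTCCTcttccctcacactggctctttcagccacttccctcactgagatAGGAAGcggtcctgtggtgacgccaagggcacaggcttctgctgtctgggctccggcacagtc
ETV4 intron, chr17:41656223-41656342, minus strand: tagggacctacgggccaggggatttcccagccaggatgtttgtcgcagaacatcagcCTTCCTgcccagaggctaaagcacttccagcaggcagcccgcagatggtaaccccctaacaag

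None of these 3 stretches held CCGGAA. That of ETV6 held 3 AGGAAG matches, of which 2 overlap in the run of CTTCCT, and those of ETV4 and ELK3 held 1 AGGAAG and 1 AGGAAA.

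All 9 genes had an ETS1 peak with its midpoint within 500 bp of one of their annotated TSSs. Over all protein-coding genes that share was 53.8% (10689 genes). Among 19 other ETS genes 11 had such a peak, and the genes of the partner proteins GABPB1, GABPB2 and SRF all did. The 9 genes have a median of 6 annotated TSSs (range 3 to 19), against 5 over all protein-coding genes. With the canonical TSS alone the count was 7 of 9, against a share of 46.7% of protein-coding genes and 5 of the 19 other ETS genes. ETV1 and ETV4, with 19 and 11 annotated TSSs, were the genes that dropped out, while ETV5, with 14, stayed. A peak lay over the canonical TSS itself in 8 of 9, all but ETV1, where the share of protein-coding genes was 52.2%. No test of these counts was made, since the members were chosen with results of the same list known.

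Away from the TSS the genes divided. A peak in an intron was present at ETV4, ELK3 and ETV6, 3 of 9, beside 17.9% of protein-coding genes and 6 of the 19 other ETS genes. An intergenic peak within reach was present at ETV4, ELK3, ELK4 and ETV6, 4 of 9, beside 38.2% of protein-coding genes and 11 of the 19 other ETS genes. No member had a peak in an exon away from a TSS, and of the 19 other ETS genes SPI1 alone had one. The share of protein-coding genes with such a peak was not counted. The median length of the 9 genes was 51777 bp, against 27614 bp over all protein-coding genes, and ELK1 and ERF were shorter than the latter.

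**Figure D1:**
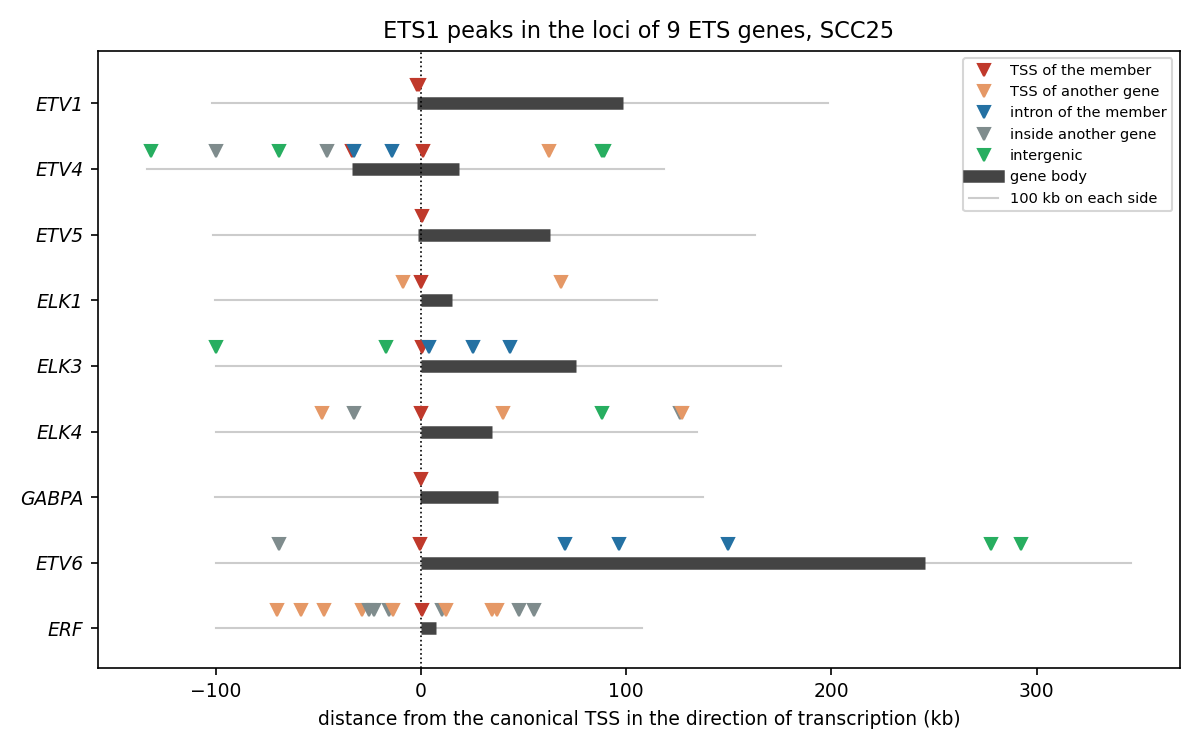
Position of each ETS1 peak (triangle, coloured by class) relative to the canonical TSS of each of the 9 genes, in kb in the direction of transcription. Dark bars are gene bodies and thin lines the 100 kb on each side; every gene has a peak at or near 0 kb, and blue intronic peaks appear at ETV4, ELK3 and ETV6.

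By position, 11 of the 53 peaks lay at a TSS of the member, 14 at the TSS of another gene, 8 in an intron of the member, 11 inside another gene and 9 between genes. This mix was close to that of the whole list. Within 500 bp of a TSS lay 47.2% of the 53 peaks, against 43.3% of all nuclear peaks. Inside a gene and away from a TSS lay 35.8%, against 36.0%, and between genes 17%, against 20.6%. The number per locus ran from 1 at ETV5 and GABPA to 15 at ERF. Its median was 6, as for the 19 other ETS genes, against 4 over all protein-coding genes. At least 1 peak lay in every one of the 9 loci, a property shared by 88.1% of protein-coding genes. Per 100 kb of locus the median was 1.57 peaks, against 1.63 over all protein-coding genes. Of the 53 peaks, 22 had the member's canonical TSS as the nearest canonical TSS of any protein-coding gene. Among the other ETS genes this varied between 0 of 7 peaks, as at FEV, and 9 of 9, at ETS2. It was not counted over all protein-coding genes.

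**Figure D2:**
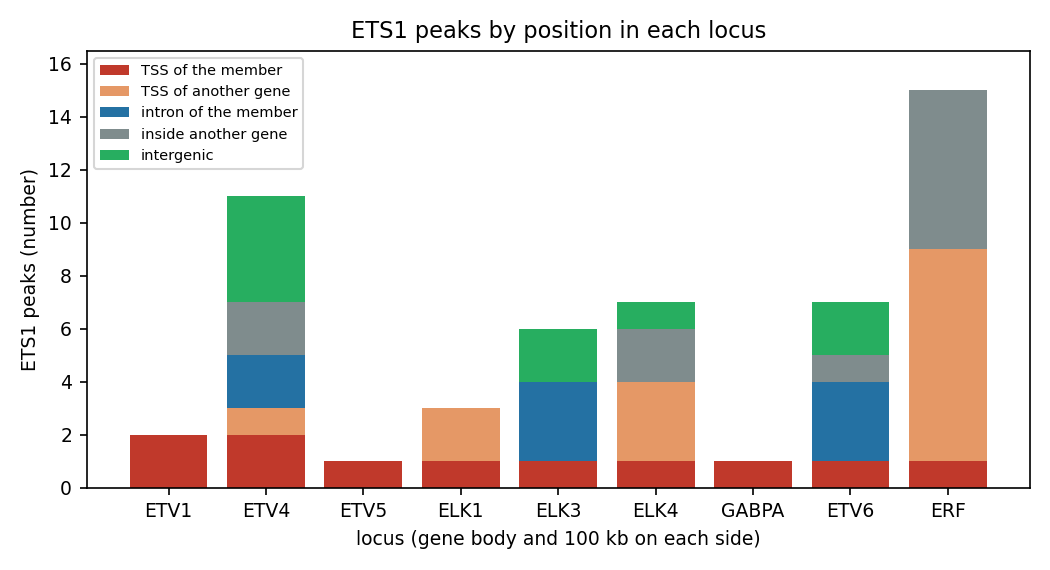
Number of ETS1 peaks in each locus, stacked by position. ERF has the tallest bar, 15 peaks, of which 1 is at its own TSS, and ETV5 and GABPA have 1 peak each, at the TSS.

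Among the PEA3 genes, ETV1 and ETV5 had ETS1 peaks at the TSS and nowhere else in their loci. ETV4 also had peaks in its introns and on both sides of its body. ETV1, a factor fused or overexpressed in several tumour types, had 2 peaks, and 22.6% of protein-coding genes had fewer. They were narrow, 678 and 585 bp, and only 11.0% and 6.80% of all peaks within 500 bp of a TSS were narrower. Both lay upstream of the canonical TSS, with midpoints at 1703 and 962 bp, and each lay beside an alternative TSS, 15 and 62 bp away. The canonical TSS of ETV1, at position 14029291 of chromosome 7, was itself under no peak.

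ETV5 had a single peak of 2217 bp, chr3:185825322-185827538, wider than 88.9% of TSS peaks, with its midpoint 448 bp downstream of the canonical TSS. It lay 34 bp from the closest of the gene's 14 TSSs. The annotated body of DGKG, a diacylglycerol kinase gene, also covers this position, but the peak was not at a TSS of DGKG. With a density of 0.379 peaks per 100 kb, ETV5 had the sparsest locus of the 9.

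ETV4 had 11 peaks, and 85.1% of protein-coding genes had fewer. Its widest peak, 2805 bp at chr17:41621438-41624242, covered the canonical TSS with its midpoint 868 bp inside the gene, 70 bp from another TSS. A second TSS peak of 488 bp lay 33.5 kb upstream, 212 bp from the outermost annotated start. The peaks in introns lay 32.7 and 13.9 kb upstream of the canonical TSS, between these starts, and were 881 and 544 bp wide. Hence the intronic class at ETV4 rests on the long transcripts of the annotation. The whole body of ETV4 also lies within that of DHX8, an RNA helicase gene of the splicing machinery on the other strand, and 6 of the 11 peaks were inside DHX8. One of these, 932 bp wide, was at the TSS of DHX8, 62.4 kb downstream of the ETV4 start. No peak lay between it and the one over the canonical TSS, so most of the canonical transcript of ETV4 held none. Outside ETV4, 1 peak lay inside DHX8 at 45.8 kb upstream and 1 inside MEOX1, a homeobox gene, at 99.9 kb. The 4 intergenic peaks lay 69.0 and 132 kb upstream and 88.1 and 89.4 kb downstream of the ETV4 start, closer to the canonical TSSs of MEOX1 or DHX8.

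The ternary complex factor genes each had 1 peak at their own TSS and differed in what lay around it. ELK1 had 3 peaks. That at its TSS was 1422 bp wide, wider than 60.3% of TSS peaks, and its midpoint lay 90 bp upstream of the canonical start on chromosome X. The others were at TSSs of other genes: UXT, which encodes a prefoldin-like protein, 8.44 kb upstream, and TIMP1, an inhibitor of matrix metalloproteinases, 68.2 kb downstream.

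ELK3, which encodes a factor that can also act as a repressor, had 6 peaks, all in intergenic sequence, at its TSS or in its introns. The TSS peak, chr12:96586882-96590287, was 3406 bp wide, wider than 98% of TSS peaks, with its midpoint 431 bp inside the gene. The intronic peaks lay 3.92, 25.4 and 43.5 kb downstream of the start and were 324, 703 and 485 bp wide. Upstream, peaks lay at 17.1 and 99.9 kb, and the second of these was nearer to LTA4H. All but that outermost peak, 5 of 6, were inside a super-enhancer, a long stretch dense in the active mark H3K27Ac, as the authors called them in SCC25. No other member had a peak in one, so the share over the 9 loci was 5 of 53 (9.43%), beside 17.1% of all nuclear peaks.

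ELK4 had 7 peaks, of which 1 was nearest to ELK4 itself. This TSS peak was 1521 bp wide, wider than 65.8% of TSS peaks, and its midpoint lay 255 bp inside the gene. The TSSs of SLC45A3, MFSD4A and CDK18, genes for membrane transporters in the first pair of cases and for a kinase in the last, carried peaks of 1554, 1315 and 1614 bp. They lay 48.2 kb upstream, 39.8 kb downstream and 127 kb downstream of the ELK4 start. The peak of MFSD4A was at an alternative TSS, 23169 bp from that gene's canonical one. The remaining peaks were 1 inside SLC45A3, 1 inside CDK18 and 1 between genes at 88.0 kb downstream.

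GABPA had 1 peak, and 11.9% of protein-coding genes had none. It was 1645 bp wide, at chr21:27106769-27108413, with its midpoint 308 bp inside the gene. The peak was also at the TSS of ATP5PF, a subunit gene of the mitochondrial ATP synthase on the other strand, whose canonical TSS lies 68 bp from that of GABPA. A peak at this shared start cannot be assigned to one gene or the other from positions. The genes of the beta subunits, GABPB1 and GABPB2, had 1 TSS peak each, with midpoints 306 and 47 bp from the canonical start. SRF, the gene of the partner of the ternary complex factors, had its TSS peak 243 bp from the start.

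Of the repressor genes, ETV6 had peaks spread through its introns, and ERF had most peaks at its neighbours. The TSS peak of ETV6, chr12:11801505-11803381, was 1877 bp wide, wider than 80.7% of TSS peaks, and its midpoint lay 165 bp upstream of the start. Its intronic peaks lay 70.2, 96.6 and 149 kb downstream of the start and were 616, 332 and 365 bp wide. ETV6 is 246 kb long, so its 7 peaks gave a density of 1.57 per 100 kb, and 49.2% of protein-coding genes had a lower one. The others were 1 inside LINC01252, a long noncoding RNA gene 69.0 kb upstream, and 2 beyond the 3′ end, 278 and 292 kb from the start. Of its peaks, 5 of 7 had ETV6 as the nearest canonical TSS.

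ERF had 15 peaks, with 94.5% of protein-coding genes having fewer, and a density of 7.23 per 100 kb. Only 1 of them was nearest to ERF. That peak, chr19:42756918-42760779, was 3862 bp wide, wider than 98.9% of TSS peaks, and had its midpoint 432 bp inside a gene of 7.56 kb. It was also at a TSS of ENSG00000268643, an overlapping protein-coding gene of the annotation, and cannot be assigned to one of them from positions. Another 8 were at TSSs of neighbours, among them TMEM145, the pair PAFAH1B3 and PRR19, CIC (2 peaks), the kinase gene GSK3A, ZNF526 and DEDD2. CIC encodes Capicua, a repressor that is known for holding down the PEA3 genes and is relieved by ERK. It carried 5 of the 15 peaks, 2 at its TSSs and 3 inside it. The midpoints of those at its TSSs lay 502 and 14348 bp from the canonical TSS of CIC. The widest peak of all 9 loci, 4048 bp, was one of those inside CIC. Of the 3 peaks left, 2 were inside DEDD2 and 1 lay 2156 bp from the canonical TSS of GSK3A.

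**Figure D3:**
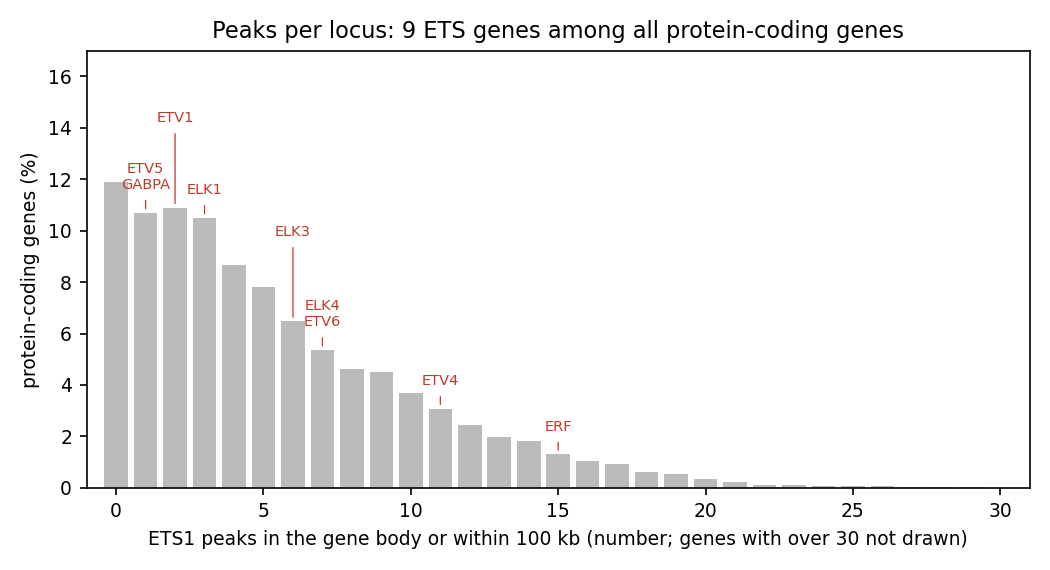
Share of all protein-coding genes (bars, in percent) by the number of ETS1 peaks in their body or within 100 kb, with the 9 genes marked above the bar of their own count. The members are scattered over the distribution from 1 peak (ETV5, GABPA) to 15 (ERF), and the 6 genes with over 30 peaks are not drawn.

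Peaks at the members' own TSSs had a larger median width than those in their introns, as TSS peaks had over the whole list. The 11 TSS peaks had a median width of 1645 bp (range 488 to 3862), against 1262 bp (quartiles 912 and 1719) over all 11685 peaks within 500 bp of a TSS. The 8 intronic peaks had a median of 514.5 bp (range 324 to 881). That median lies within the quartiles of all peaks inside genes and away from a TSS (median 743 bp, quartiles 487 and 1181). Intronic peaks of ELK3 (324 and 485 bp) and ETV6 (332 and 365 bp) were below the lower quartile. The ranges of these classes overlap, because the TSS peaks of ETV1 and the upstream one of ETV4 were as narrow as intronic peaks. Of the 11, those of ERF, ELK3, ETV4 (at the canonical TSS), ETV5 and ETV6 were above the upper quartile of all TSS peaks.

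**Figure D4:**
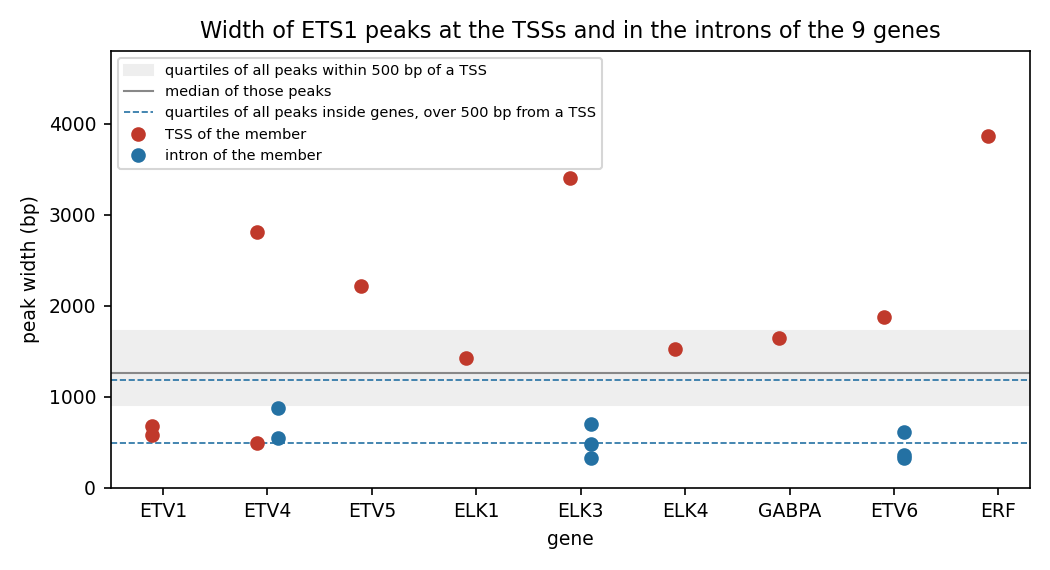
Width in bp of each ETS1 peak at a TSS (red) and in an intron (blue) of the 9 genes. The grey band and line are the quartiles (912 and 1719 bp) and median (1262 bp) of all peaks within 500 bp of a TSS, and the dashed blue lines the quartiles (487 and 1181 bp) of all peaks inside genes and away from a TSS. The TSS peaks of ERF and ELK3 lie far above the band, and the intronic peaks lie between 324 and 881 bp.

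The letters around the peak midpoints were like those of the whole list. Matches were counted on both strands in the 200 bp around each midpoint, and intervals are 95% Wilson intervals, which cover counting error only. The core GGAA was present in 88.7% of the 53 peaks (77.4 to 94.7), beside 89.9% of all nuclear peaks. CCGGAA was present in 4 peaks, 7.55% (2.97 to 17.9), beside 11.8%. AGGAAG was present in 34.0% (22.7 to 47.4) and AGGAAA in 15.1% (7.85 to 27.1), beside 30.6% and 20.1%. Either of the last pair was present in 41.5% (29.3 to 54.9), beside 43.9%. Every one of these shares of the list lies inside the members' interval, and GGAA is contained in the longer motifs.

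The AP-1 motif TGANTCA was present in 9 of the 53 peaks, 17% (9.20 to 29.2), beside 15.1% of all peaks. It was rarer near TSSs, in 8.0% of 25 member peaks and 4.69% of all, than away from them, in 25% of 28 member peaks and 23.0% of all. ETV6 had it in 3 of its peaks, ELK3 and ELK4 in 2 each, and ETV4 and ERF in 1 each. The CArG box, the motif of serum response factor, was found in 0 of 53 windows, which allows a share of up to 5.66% by the rule of 3 counts (6.76% by the Wilson interval), and in 0.590% of all peaks. At this number of peaks a share like that of the list was not detectable in these windows. Over whole peaks, the only CArG box was 1 in the intergenic ETV6 peak 278 kb from the start. In the list, 4.15% of whole peaks near a TSS and 3.51% of those away from one held it.

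The choice of window changed the picture for CCGGAA. In 600 bp it was present in 39.6% of the member peaks (27.6 to 53.1), beside 26.0% of all peaks, and in the whole peak in 45.3% (32.7 to 58.5), beside 37.4%. The members' share was thus below that of the list near the midpoint and above it in 600 bp and in the whole peak. Only in 600 bp did the list's share lie outside the members' interval, and the difference was not tested. At the members' TSS peaks, 9 of 11 held CCGGAA somewhere (81.8%, 52.3 to 94.9), beside 58.0% of all peaks near a TSS, which are narrower. Per kb this came to 0.975 matches, beside 0.726. In the window of 200 bp in total, centred on the midpoint, the share was 18.2% of the 11 peaks and 18.3% of all peaks near a TSS.

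In the intronic peaks of ETV4, ELK3 and ETV6, CCGGAA was found at no place in any of the 8 (0%, 0 to 32.4), beside 21.8% of all peaks inside genes and away from a TSS. That share lies inside the interval, and the 8 peaks are narrower than those of the list. AGGAAG or AGGAAA was present in 200 bp in 7 of 8 (87.5%, 52.9 to 97.8), beside 51.8% of those peaks. The exception was the ETV4 peak at 32.7 kb. The windows of the ETV6 introns held 7, 6 and 6 GGAA matches at 70.2, 96.6 and 149 kb. Over all 15276 peaks more than 500 bp from a TSS the median was 2 matches, and 5.15% had at least 6. These were noticed after the counts had been seen, and a match is a description of the letters, not a binding site.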

How the data were processed

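ETS1 ChIP-Seq of SCC25 cells was deposited by the authors as 1 list of consensus peaks for the 3 samples. They mapped reads to hg19 with Bowtie 1.1.1, keeping reads with 1 locus, pooled files with SAMtools 1.3, used MACS2 with the inputs merged as control, and kept reproducible peaks by IDR. The deposited columns are positions only, with no count, score or depth per sample. What orders the list is not given in the sources used here. The 9 mitochondrial peaks were left out. Genes and sequence came from GENCODE 44 and GRCh37, which has the nuclear sequence of hg19, and 0 nuclear peaks ran past a chromosome end.

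A peak at its midpoint was classed in this order: TSS of the member (500 bp), TSS of another gene, exon, intron, inside another gene, intergenic. Genes named are the 9 members, 19 other ETS genes, 3 partner genes and neighbours with a peak at their TSS; DGKG, MEOX1, LTA4H and LINC01252 were named after their values were seen, and 1 neighbour is not reported here. Sequences are the TSS peak nearest the canonical TSS and the widest intronic peak of the 3 genes with most. The 6 motifs were searched on both strands. The members and lists were chosen with earlier results of these data known, so no test was made. Super-enhancers are the intervals of the authors. The code that counts peaks was tested on simulated data with planted peaks. Proteins were not used here. Python 3.11.15, numpy 2.4.6, scipy 1.17.1, pysam 0.24.0, samtools 1.23.1 and matplotlib 3.10.9 were used.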

Additional observations from a re-analysis of the deposited data

How the results depend on the processing

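No paired analysis was possible because the list is pooled and no result comes from a test, and for the same reason no replicate could be left out. Of 35 alternatives over 8 results, 26 stayed within 1.5 times the count reported or, for motif shares, within its interval. With the first 13485 lines of the list alone (median width 1132 bp, against 801 bp in the rest), the 9 loci held 29 peaks in place of 53, with 4 in introns in place of 8, 2 intergenic in place of 9 and 9 at the TSS of another gene in place of 14. Fewer peaks were counted there by construction. A TSS peak then remained at 6 of the 9 genes, without ETV1, ETV5 and ELK1. The share of all protein-coding genes under this cut was not counted, and the 53.8% above is that of the full list. With 50 kb on each side, 4 intergenic peaks remained in place of 9. The share with CCGGAA was 39.6% in 600 bp and 45.3% in the whole peak, and that with AGGAAG or AGGAAA 75.5% and 94.3%, where longer windows hold more matches by construction. Overlap of at least 1 bp, a reach of 1500 bp around a TSS and protein-coding transcripts alone left the 9 genes with a TSS peak and the 3 with an intronic one. The number of peaks limits all shares, and neither antibody, depth nor signal strength could be examined.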
